A study of Mus musculus with 8 samples.

Results

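The genes that write, maintain and oxidise DNA methylation were followed in haematopoietic stem cells after loss of the histone demethylases Kdm4a, Kdm4b and Kdm4c. They are the DNA methyltransferase genes Dnmt1, Dnmt3a and Dnmt3b, the maintenance factor gene Uhrf1, and the dioxygenase genes Tet1, Tet2 and Tet3. They were chosen by symbol, as known regulators of these cells, with earlier results of these data known. They make up 7 of the 24222 symbols in the count tables. All 7 were present and passed the low-count filter, with at least 199 counts in every library.

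Haematopoietic stem cells are the rare marrow cells from which all blood cells arise. They were isolated from marrow by cell sorting, from 4 Kdm4a, Kdm4b and Kdm4c triple knockout mice (KO) and 4 wild-type control mice (WT), all labelled C57BL6, at 2 weeks from induction of the deletion. There was 1 library a mouse, so replicates are mice. The sources used here do not give the sort markers, the inducing agent, the driver of deletion, the exons deleted or the age of the mice. Nor do they say whether the WT mice carried the driver or received the inducer.

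DNA methylation is placed on cytosines followed by guanine (CpG). Dnmt3a and Dnmt3b set new marks, and Dnmt1, brought to half-methylated DNA by Uhrf1, copies them to the new strand after replication. The TET enzymes oxidise 5-methylcytosine, using iron and 2-oxoglutarate as the KDM4 demethylases also do. In mouse haematopoietic stem cells, loss of Dnmt3a or of Tet2 is known to favour self-renewal, Dnmt1 is needed for stem cell maintenance, and both DNMT3A and TET2 are often mutated in human clonal haematopoiesis.

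Total counts were 5541504 to 14872493 in KO libraries and 3594315 to 6044289 in WT libraries, and the deepest was KO mouse 3. All 3 targeted genes were lower in each KO mouse than in each WT mouse. Kdm4c averaged 36.0 ± 10.6 CPM in KO and 115 ± 22.7 CPM in WT (SD, n = 4 each), where CPM is counts per 1000000 of the TMM-scaled library total. Kdm4a averaged 20.3 ± 3.86 CPM in KO and 36.3 ± 9.56 CPM in WT, and Kdm4b 3.73 ± 1.79 CPM in KO and 10.2 ± 2.44 CPM in WT. By edgeR, Kdm4c passed the test (adjusted p = 2.05e-05), while Kdm4a (adjusted p = 0.132) and Kdm4b (adjusted p = 0.142) did not. Of 13 stem cell markers all 13 passed the low-count filter, among them Hlf, Kit, Mecom and Procr. Hba-a1 and Hbb-bs (haemoglobin), Siglech (plasmacytoid dendritic cells) and Prss34 (basophils) were listed at 0 in all 8 libraries. They are 2 of 10 erythroid, 1 of 8 macrophage and dendritic cell, and 1 of 5 mast cell and basophil markers. Other genes of these lists had reads. Near-identical gene copies can take or void reads of the haemoglobin genes, so their 0 does not show that erythroid RNA was absent. The most abundant markers of other lists were Car2 and Itgb3.

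None of the 7 genes passed the edgeR quasi-likelihood test over all genes (0 higher and 0 lower at adjusted p 0.05), where 0.583% of the 11498 genes tested were called in either direction. Dnmt3a, a de novo methyltransferase gene, came nearest, at 1.42-fold lower in KO. With no adjustment, 1 of the 7 had p below 0.05 and a lower level and 0 a higher one, against 5.44% of all genes lower and 5.76% higher. DESeq2 called 1 of the 7 lower, Dnmt3a, against 0.661% of all genes, and limma voom called 0. The groups did not overlap for 1 of the 7, again Dnmt3a, while 2.93% of all genes had every KO library below every WT library. The median log2 fold change of the 7 was -0.05, and that of all genes tested 0.002.

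**Figure D1:**
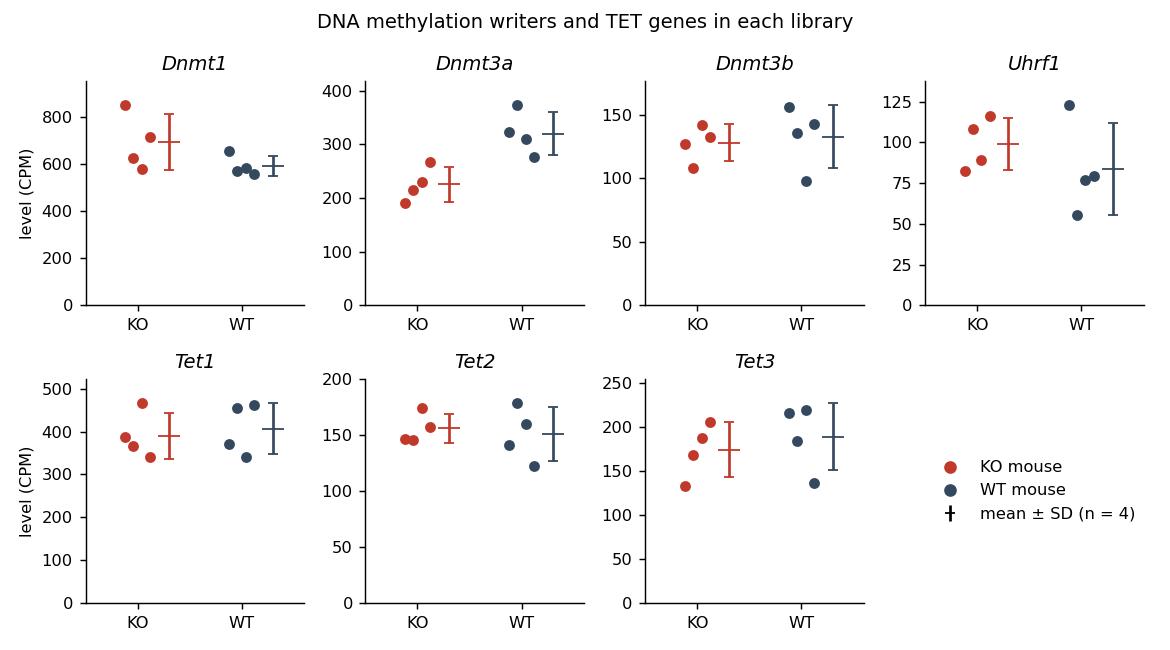
Level in CPM (vertical axis, from 0) of each of the 7 genes in each KO and WT mouse; points are libraries, and the crossed bars are the mean ± SD of 4 mice. Only the Dnmt3a panel has all KO points below all WT points, the highest KO value being 266 CPM and the lowest WT value 276 CPM.

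Dnmt3a (ENSMUSG00000020661.15, chromosome 12, 3806007 to 3914443, plus strand, GRCm38) makes an enzyme that methylates CpG sites without needing a mark on the opposite strand. It was at 189.7, 215, 230.1 and 266 CPM in KO mice 1 to 4, against 323, 373, 309 and 276 CPM in WT mice 1 to 4. Every KO mouse lay below every WT mouse, and KO mouse 4 and WT mouse 4 were nearest to each other. The means were 225 ± 31.8 CPM in KO and 319.9 ± 40.2 CPM in WT (SD, n = 4 each). Fitted across all genes by edgeR, the log2 fold change was -0.50 (SE 0.128, unadjusted 95% interval -0.77 to -0.24), with an adjusted p of 0.069. By p, Dnmt3a ranked 96 among all genes tested. The exact two-sided permutation p was 0.0286, the smallest that 4 against 4 mice allow. The difference did not pass the threshold over all genes. In sorted bulk samples, fewer cells with much of a gene's RNA and less of that RNA per cell cannot be told apart.

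The Dnmt3a call changed with the processing, while its fold varied within the range given here. The adjusted p was 0.0252 with DESeq2, 0.0341 by edgeR without a low-count filter and 0.0475 by edgeR without WT mouse 4. It was 0.0899 by limma voom, and 0.25 by edgeR without WT mouse 2, the highest WT value. The log2 fold change stayed between -0.59 and -0.43 over all 18 alternatives.

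**Figure D2:**
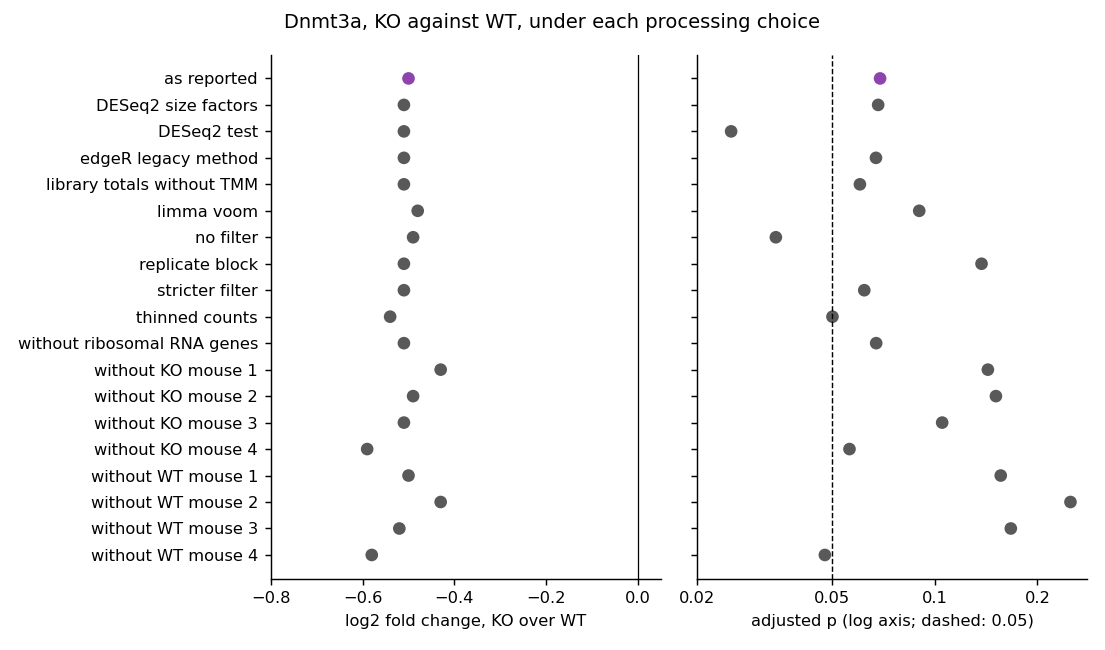
Log2 fold change of Dnmt3a, KO over WT (left), and its adjusted p on a log axis (right), as reported (purple) and under each of 18 other choices (grey); the dashed line is 0.05. The fold stays between -0.59 and -0.43, and 3 of the 18 choices give an adjusted p under 0.05.

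A comparison that needs no scaling between libraries set Dnmt3a reads against reads of another gene of the same library; it was chosen after the values were seen. For each read of Dnmt1 there were 0.223, 0.343, 0.397 and 0.371 reads of Dnmt3a in KO mice 1 to 4, against 0.493, 0.651, 0.531 and 0.493 in WT mice 1 to 4. For each read of Tet2 there were 1.29, 1.47, 1.33 and 1.69 in KO mice, against 2.28, 2.08, 1.93 and 2.25 in WT mice. Both ratios were lower in every KO mouse than in any WT mouse, as was the ratio to Uhrf1. The ratios to Dnmt3b, Tet1 and Tet3 overlapped between the groups, so KO was below WT throughout for 3 of 6 genes. Set against each of the other 11497 genes tested, Dnmt3a reads separated the groups in this way for 22.7%. These ratios all share the Dnmt3a counts.

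RefSeq lists 3 start regions for Dnmt3a, of which 2 lie close together at the upstream end and 1 lies inside the gene. A shorter product from an internal promoter is known for Dnmt3a, and the counts sum reads over the whole gene, so its products cannot be told apart here. The farthest upstream and the internal region are shown because they are the start regions between which the lower Dnmt3a count cannot be divided. Each covers 250 bases before to 50 after the start on the plus strand (GRCm38.p6), 5′ to 3′, with capitals marking CpG, the dinucleotide that the Dnmt enzymes methylate.
Dnmt3a upstream start, chr12:3806730-3807029: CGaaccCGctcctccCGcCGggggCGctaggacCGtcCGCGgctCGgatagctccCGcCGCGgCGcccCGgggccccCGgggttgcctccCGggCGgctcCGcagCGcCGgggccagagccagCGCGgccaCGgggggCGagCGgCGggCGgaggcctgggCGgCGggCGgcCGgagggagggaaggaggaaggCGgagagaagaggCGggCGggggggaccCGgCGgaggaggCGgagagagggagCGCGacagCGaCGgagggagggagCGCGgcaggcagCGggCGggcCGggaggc
Dnmt3a internal start, chr12:3891494-3891793: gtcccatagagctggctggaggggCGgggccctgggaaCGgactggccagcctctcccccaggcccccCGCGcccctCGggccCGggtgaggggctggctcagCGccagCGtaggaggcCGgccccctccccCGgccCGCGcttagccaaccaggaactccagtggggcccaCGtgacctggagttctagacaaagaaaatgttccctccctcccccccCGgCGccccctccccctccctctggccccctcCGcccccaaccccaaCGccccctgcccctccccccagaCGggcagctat
The upstream region holds 46 CpG and the internal region 18, where the median of 32851 such regions is 7 and 98.4% and 70.3% of them hold fewer. Both contain the GC box GGGCGG on either strand, as do 35.7% of all regions, and neither contains TATAAA on either strand, which 13.6% of all regions hold. The count data do not measure methylation, so whether any of these CpG was methylated is not known.

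An antisense gene, Dnmt3aos, covers 133 bases, or 0.8%, of the Dnmt3a exons. It had 3, 2, 34 and 2 counts in KO mice 1 to 4, and 0, 0, 1 and 0 in WT mice 1 to 4, and did not pass the low-count filter. Most of its reads were in KO mouse 3, the deepest library, which was also highest after scaling. It was at 2.27 CPM there, against 0.283 to 0.429 CPM in the other KO mice and at most 0.196 CPM in WT. Every KO mouse was thus above every WT mouse, though from counts near 0 outside KO mouse 3. The strand setting is not given, so reads in the shared bases may not have been separated, and their part in the Dnmt3a value was not tested.

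Some markers of cell identity separated the groups as Dnmt3a did. The summed level of the 13 stem cell markers was 3639 to 3989 CPM in KO and 4239.9 to 4527 CPM in WT, without overlap. Of the 13, edgeR called 0, DESeq2 called 2 higher and 1 lower, and voom 1 higher. The fold was above 1 for 3 of them. Ly6a (Sca-1) averaged 81.0 ± 6.52 CPM in KO and 47.9 ± 14.1 CPM in WT, and Vwf, the marker that voom called, 282 ± 30.2 CPM in KO and 197 ± 35.0 CPM in WT (SD, n = 4 each; DESeq2 adjusted p = 0.0259 and 0.0409). Mecom, a stem cell transcription factor, averaged 251 ± 23.9 CPM in KO and 336 ± 27.0 CPM in WT (DESeq2 adjusted p = 0.038), and Kit, a growth factor receptor, 888 ± 99.6 CPM in KO and 1093 ± 60.6 CPM in WT. None of these 4, nor Hoxb5, overlapped between the groups, while the other markers of the 13 did. Among all genes tested, 2.93% had every KO library below every WT library, the direction of Mecom, Kit and Hoxb5. The share with every KO library above, the direction of Ly6a and Vwf, was not counted. The summed level of 10 erythroid markers was 1308 to 1507 CPM in KO and 2262 to 2467 CPM in WT, nearly all of it Car2, which fell in KO. That of 6 megakaryocyte markers was 553 to 765 CPM in KO and 310.4 to 514 CPM in WT, and Gp1ba and Itga2b rose in KO (edgeR adjusted p = 0.00128 and 0.00737). Of the 6, 5 had a fold above 1. Itgb3 held the largest part of the sum, at 338 ± 95.1 CPM in KO and 237 ± 77.1 CPM in WT, with overlap. Pf4 went the other way, at 49.3 ± 8.32 CPM in KO and 66.1 ± 9.92 CPM in WT (edgeR adjusted p = 0.376).

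The other marker lists had lower sums in every library than the stem cell, erythroid and megakaryocyte lists. The sums were 105 to 231 CPM in KO and 101 to 139 CPM in WT for neutrophils and monocytes (11 of 12 genes in the files), and 18.9 to 31.0 CPM in KO and 14.5 to 29.5 CPM in WT for 8 genes of macrophages and dendritic cells. In the second of these lists Cd68 rose and Mrc1 fell in KO (edgeR adjusted p = 0.0347 and 0.02). The sums were 31.9 to 52.6 CPM in KO and 21.5 to 45.1 CPM in WT for 11 genes of B, T and NK cells, and 1.94 to 6.50 CPM in KO and 1.91 to 9.51 CPM in WT for 5 genes of mast cells and basophils. Those of 7 stromal and endothelial genes were 36.5 to 65.8 CPM in KO and 30.7 to 66.6 CPM in WT, and of 4 progenitor genes 81.0 to 112 CPM in KO and 103 to 118 CPM in WT. Single genes held the largest part of some sums. Itgam, of the neutrophil and monocyte list, averaged 111 ± 34.7 CPM in KO and 72.2 ± 14.5 CPM in WT (edgeR adjusted p = 0.219). Cd27, of the progenitor list, averaged 87.1 CPM in KO and 98.9 CPM in WT, and Pecam1, of the stromal and endothelial list, 44.8 and 40.7 CPM. The part of cell composition in the Dnmt3a value was not tested.

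Dnmt3b (ENSMUSG00000027478.15, chromosome 2, 153649450 to 153687730, plus strand) makes the second de novo methyltransferase. It was at 127, 108, 142 and 133 CPM in KO mice 1 to 4, against 156, 136, 98.3 and 143 CPM in WT mice 1 to 4. All KO values lay within the WT range, whose lowest value was that of WT mouse 3. Its log2 fold change was -0.06 (SE 0.154; edgeR, adjusted p = 0.937). The 95% interval, -0.38 to 0.26, reaches from a fold of 0.770 to 1.19. The fitted Dnmt3a value, -0.50, lay outside it, but the Dnmt3a interval, -0.77 to -0.24, overlapped it. As the ratio of Dnmt3a to Dnmt3b reads also overlapped between the groups, a different response of these genes was not shown.

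Dnmt1 (ENSMUSG00000004099.16, chromosome 9, 20907209 to 20959888, minus strand) makes the maintenance methyltransferase. It was at 852, 626, 579.9 and 716 CPM in KO mice 1 to 4, against 655, 572, 582 and 559 CPM in WT mice 1 to 4. KO mouse 1 was the highest, and KO mice 2 and 3 lay within the WT range. The means were 694 ± 120.0 CPM in KO and 592 ± 43.0 CPM in WT (SD, n = 4 each). Dnmt1 thus had a log2 fold change of 0.23 (SE 0.115, 95% interval -0.01 to 0.46; edgeR, adjusted p = 0.474), with an exact permutation p of 0.2. Over all 18 alternatives it lay between 0.11, without KO mouse 1, and 0.31, without KO mouse 3.

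Uhrf1 (ENSMUSG00000001228.14, chromosome 17, 56303321 to 56323486, plus strand) makes the protein that finds half-methylated CpG and brings Dnmt1 there. It was at 82.6, 108, 89.3 and 116 CPM in KO mice 1 to 4, against 123, 55.7, 77.2 and 79.7 CPM in WT mice 1 to 4. WT mouse 1 was above all KO mice and the other 3 WT mice were below them, so the WT range enclosed the KO range. Its log2 fold change was 0.20 (SE 0.191, 95% interval -0.19 to 0.59; edgeR, adjusted p = 0.766). Leaving out 1 library moved the value of Uhrf1 between 0.07, without WT mouse 2, and 0.45, without WT mouse 1. Uhrf1 is also the neighbour of a targeted gene, ending 2575 bases before the start of Kdm4b on the same strand. The fitted level of Kdm4b was 2.65-fold lower in KO (edgeR adjusted p = 0.142), from 6 to 72 counts a library. The interval of Uhrf1 ran from a fold of 0.876 to 1.51. An effect of the Kdm4b deletion on Uhrf1 was not tested.

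Dnmt1 and Uhrf1 are known to be expressed with the genes of DNA replication. The summed level of 25 S-phase genes was 3564, 2822, 3077 and 3154 CPM in KO mice 1 to 4, against 3009, 2508, 2421 and 2884 CPM in WT mice 1 to 4. KO mouse 1, the highest for this sum, was the highest of all for Dnmt1 but the lowest KO mouse for Uhrf1, and the sum of KO mouse 2 lay within the WT range. Of the 25, edgeR, DESeq2 and limma voom each called 0. With no adjustment, 5 had p below 0.05 and a higher level and 0 a lower one, where 5.76% of all genes tested were higher and 5.44% lower by that rule. The median log2 fold change of the 25 was 0.17. Mcm6, a subunit of the replicative helicase, averaged 622 ± 94.3 CPM in KO and 474 ± 55.0 CPM in WT, and Ccne1, a cyclin of S-phase entry, 8.93 ± 6.47 CPM in KO and 2.64 ± 1.92 CPM in WT (SD, n = 4 each), with an adjusted p of 0.163 each by edgeR. Without a low-count filter, edgeR called these 2 higher. The part of the S-phase level in the Dnmt1 and Uhrf1 values was not tested.

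Tet1 (ENSMUSG00000047146.17, chromosome 10, 62804570 to 62908996, minus strand) had the most reads of the TET genes. It was at 388, 366, 466 and 341 CPM in KO mice 1 to 4, against 372, 455, 341 and 462 CPM in WT mice 1 to 4. Both groups spanned nearly the same range. Its log2 fold change was -0.05 (SE 0.125; edgeR, adjusted p = 0.928), with a 95% interval from a fold of 0.807 to 1.15.

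Tet2 (ENSMUSG00000040943.12, chromosome 3, 133463679 to 133545139, minus strand) is the TET gene best known from blood cell disorders. It was at 147, 146, 174 and 157 CPM in KO mice 1 to 4, against 141, 179, 159.6 and 122 CPM in WT mice 1 to 4. All KO values lay between the lowest and the highest WT value. For Tet2 the log2 fold change was 0.07 (SE 0.141; edgeR, adjusted p = 0.914), and its 95% interval ran from a fold of 0.858 to 1.28.

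Tet3 (ENSMUSG00000034832.15, chromosome 6, 83362373 to 83459084, minus strand) was at 133, 168, 188 and 206 CPM in KO mice 1 to 4, against 216, 184, 219 and 136 CPM in WT mice 1 to 4. Each group had 1 low library, KO mouse 1 and WT mouse 4, and the groups overlapped. For Tet3 the log2 fold change was -0.12 (SE 0.157; edgeR, adjusted p = 0.849), with a 95% interval from a fold of 0.737 to 1.15. A p that misses the threshold does not show that the TET genes were alike in KO and WT. Differences as large as the ends of these intervals remain possible at this depth and number of mice.

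**Figure D3:**
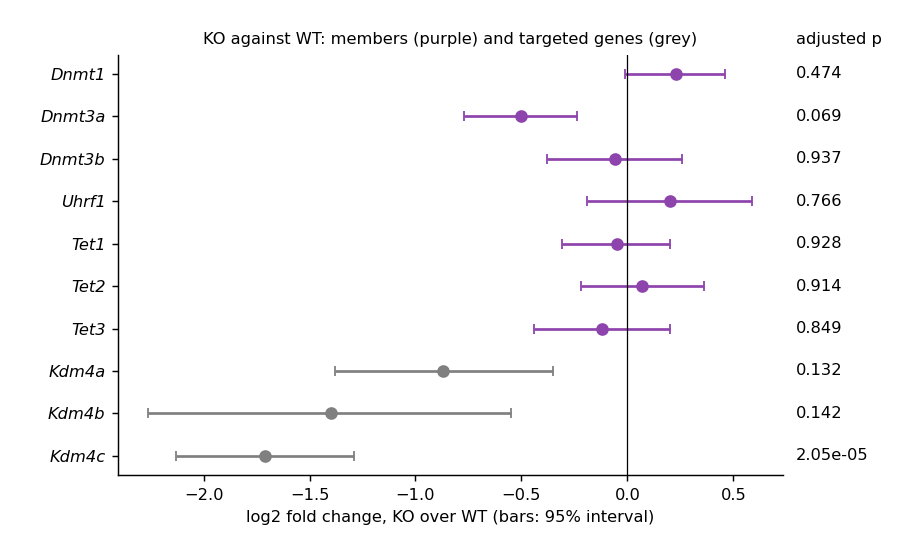
Fitted log2 fold change, KO over WT (horizontal axis), of the 7 genes (purple) and the 3 targeted genes (grey), with 95% intervals as bars and the adjusted p by edgeR at the right. Among the 7, the interval of Dnmt3a alone lies on one side of 0, at -0.77 to -0.24.

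Levels of different genes were compared per kb of annotated exon, since longer transcripts collect more reads. Dnmt1 was the most abundant in all 8 libraries, at 94.0 ± 16.3 CPM per kb in KO and 80.2 ± 5.83 CPM per kb in WT (SD, n = 4 each), 3.38 times the next gene. Tet1, Dnmt3b and Uhrf1 followed, with means of 25.3, 25.0 and 23.3 CPM per kb in KO, and 26.4, 26.1 and 19.7 CPM per kb in WT. Their order was not stable: Tet1 was above Dnmt3b in 6 of 8 libraries, and Dnmt3b above Uhrf1 in 6 of 8.

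Dnmt3a held the fifth place in all KO libraries, at 13.5 ± 1.91 CPM per kb, and the fourth or the fifth in WT, at 19.2 ± 2.42 CPM per kb (SD, n = 4 each). Uhrf1 was above Dnmt3a in 4 of 4 KO libraries and in 2 of 4 WT libraries. Dnmt3a was above Tet3 in all 8 libraries. Tet3 averaged 10.4 ± 1.86 CPM per kb in KO and 11.3 ± 2.31 CPM per kb in WT, and Tet2 9.25 ± 0.760 CPM per kb in KO and 8.93 ± 1.44 CPM per kb in WT. Tet3 was above Tet2 in 7 of 8 libraries. The exon models of Dnmt3a, Tet2 and Tet3 are long, at 16.642, 16.87 and 16.695 kb, against 7.377 kb for Dnmt1. Counted per kb of the longest transcript instead, the place of Dnmt3a differed between the group means. It averaged 23.2 CPM per kb in KO, below Dnmt3b, Uhrf1 and Tet1 at 29.6, 27.6 and 27.2, and 33.0 CPM per kb in WT, above Dnmt3b, Tet1 and Uhrf1 at 30.9, 28.4 and 23.4. On that length Tet2 and Tet3 averaged 17.0 and 15.9 CPM per kb in KO, and 16.4 and 17.3 CPM per kb in WT. Dnmt1 was first, and Tet2 and Tet3 were lowest, in both group means under both lengths.

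**Figure D4:**
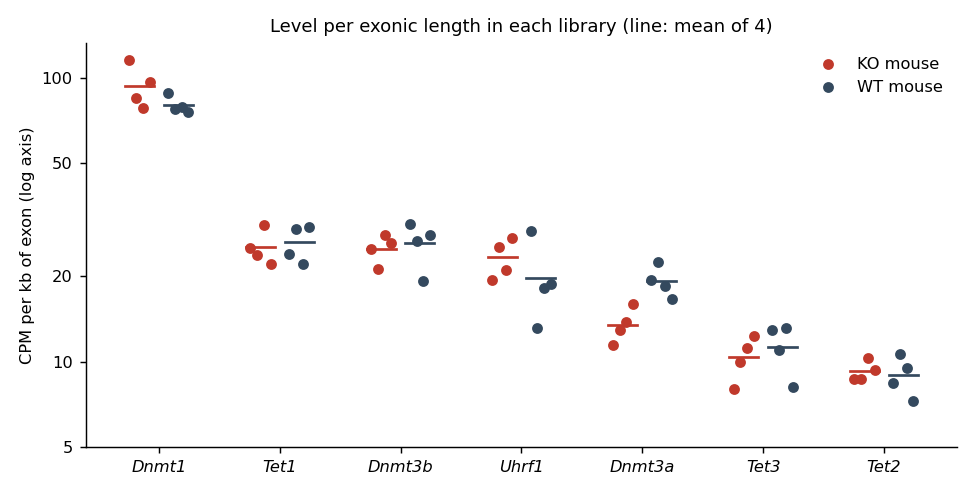
Level per kb of exon (log axis) of the 7 genes, ordered by their mean over all libraries; points are KO and WT mice and lines are group means. Dnmt1 is separated from the rest, with means of 94.0 CPM per kb in KO and 80.2 CPM per kb in WT, while Tet1, Dnmt3b and Uhrf1 overlap.

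Within the methyltransferases, the share of Dnmt3a in the summed level per kb was 7.51%, 10.8%, 11.5% and 11.5% in KO mice 1 to 4, against 14.0%, 17.7%, 15.9% and 13.8% in WT mice 1 to 4. Every KO share was below every WT share. These shares use the same Dnmt3a counts as the levels and ratios above, so they are not a separate result. How often such a share separates the groups over all genes was not counted. Dnmt1 made up 70.6% ± 4.44 in KO and 64.0% ± 2.66 in WT, and Dnmt3b 19.0% ± 2.92 in KO and 20.7% ± 2.94 in WT (SD, n = 4 each), both with overlap. Within the TET genes, Tet2 made up 20.6% ± 0.608 in KO and 19.1% ± 2.38 in WT, and Tet1 56.2% ± 4.19 in KO and 56.5% ± 7.15 in WT. None of the 3 TET shares separated the groups. Over all 8 libraries, the highest CPM value was 2.21 times the lowest for Uhrf1, the widest range of the 7, and 1.37 times for Tet1, the narrowest. Within groups, the coefficient of variation ran from 8.22% (Tet2) to 17.9% (Tet3) in KO and from 7.26% (Dnmt1) to 33.5% (Uhrf1) in WT.

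Genes that work with these enzymes were followed in lists, each given with its count past the edgeR test over all genes and its median log2 fold change, where the median of all genes was 0.002. In none of these 7 lists, the S-phase genes included, did a gene pass by edgeR, DESeq2 or limma voom. The counts at unadjusted p in each list stand against 5.76% of all genes tested higher and 5.44% lower by that rule. Genes without overlap stand against 2.93% of all genes with every KO library below every WT library. The share with every KO library above was not counted. Among 11 cofactors of maintenance and de novo methylation, 9 were tested, 0 had an unadjusted p under 0.05 in either direction, and the median was 0.09. Dnmt3l, the partner that stimulates the de novo enzymes in germ cells, was listed at 0 in all 8 libraries, and Dppa3, which keeps Uhrf1 off chromatin in oocytes, had at most 2 counts. Hells, a chromatin remodeller needed for DNA methylation, averaged 87.8 ± 8.08 CPM in KO and 77.3 ± 25.0 CPM in WT. Pcna, the replication clamp, averaged 221 ± 66.2 CPM in KO and 181 ± 27.1 CPM in WT, and Zbtb24, a regulator of Cdca7, 23.8 ± 5.35 CPM in KO and 30.2 ± 4.45 CPM in WT (SD, n = 4 each).

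Of 8 readers of methylated DNA all 8 were tested and 0 passed, with a median log2 fold change of -0.15. With no adjustment, 1 had p below 0.05 and a lower level and 0 a higher one. That reader was Zbtb4, a zinc finger protein that binds methylated CpG, at 33.4, 37.7, 36.0 and 43.8 CPM in KO mice 1 to 4, against 43.5, 88.7, 59.9 and 41.3 CPM in WT mice 1 to 4. Its groups overlapped through KO mouse 4 and WT mice 1 and 4, and the adjusted p was 0.301 by edgeR. Zbtb38, a related reader, averaged 144 ± 6.76 CPM in KO and 164 ± 4.00 CPM in WT (SD, n = 4 each) without overlap, but at a log2 fold change of only -0.20 (adjusted p = 0.615 by edgeR).

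Of 15 genes of base excision and active demethylation, which replace oxidised methylcytosine, 11 were tested and 0 passed, with a median log2 fold change of 0.19. With no adjustment, 1 had p below 0.05 and a higher level and 0 a lower one. Polb, the gap-filling polymerase, averaged 14.0 ± 3.17 CPM in KO and 8.65 ± 1.54 CPM in WT (adjusted p = 0.415 by edgeR). Neil2, a DNA glycosylase, averaged 5.24 ± 0.911 CPM in KO and 2.41 ± 1.20 CPM in WT (SD, n = 4 each), from as few as 5 counts in a library. Tdg, the glycosylase that removes TET products, had at most 2 counts in any library and Apex1 at most 24. Near-identical copies elsewhere in the genome can take or void reads of such genes, so these values are uncertain.

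Of 14 TET partners and enzymes around 2-oxoglutarate 12 were tested and 0 passed, with a median log2 fold change of 0.05. With no adjustment, 2 had p below 0.05 and a higher level and 1 a lower one. Idh1, which makes 2-oxoglutarate in the cytosol, was at 17.2, 28.2, 15.5 and 17.6 CPM in KO mice 1 to 4, against 29.6, 54.8, 32.7 and 19.8 CPM in WT mice 1 to 4. The groups of Idh1 overlapped through KO mouse 2 and WT mouse 4, and its log2 fold change was -0.76 (SE 0.291; edgeR, adjusted p = 0.295). Dcaf1, a subunit of the ubiquitin ligase that modifies TET proteins, averaged 357 ± 64.7 CPM in KO and 286 ± 36.1 CPM in WT (adjusted p = 0.346 by edgeR). Idh2, the mitochondrial enzyme, averaged 40.6 ± 2.91 CPM in KO and 47.4 ± 4.42 CPM in WT, and Ogt, the glycosyltransferase that binds TET proteins, 205 ± 22.8 CPM in KO and 235 ± 20.1 CPM in WT (SD, n = 4 each).

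Of 15 genes of the S-adenosylmethionine and folate cycle, which supply the methyl group, 14 were tested and 0 passed, with a median log2 fold change of 0.06. Before adjustment, 1 gene with a higher level and 1 with a lower level had p below 0.05. Mthfd2, a mitochondrial folate enzyme, was at 17.9, 13.2, 23.1 and 12.8 CPM in KO mice 1 to 4, against 9.01, 5.87, 6.86 and 9.04 CPM in WT mice 1 to 4. Every KO mouse was above every WT mouse, at a log2 fold change of 1.17 (SE 0.347; edgeR, adjusted p = 0.142). Mtr, methionine synthase, averaged 44.5 ± 11.3 CPM in KO and 65.4 ± 4.70 CPM in WT, also without overlap (log2 fold change -0.52, adjusted p = 0.29 by edgeR). Mat2a, which makes S-adenosylmethionine, averaged 504 ± 43.5 CPM in KO and 453 ± 68.9 CPM in WT (SD, n = 4 each).

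**Figure D5:**
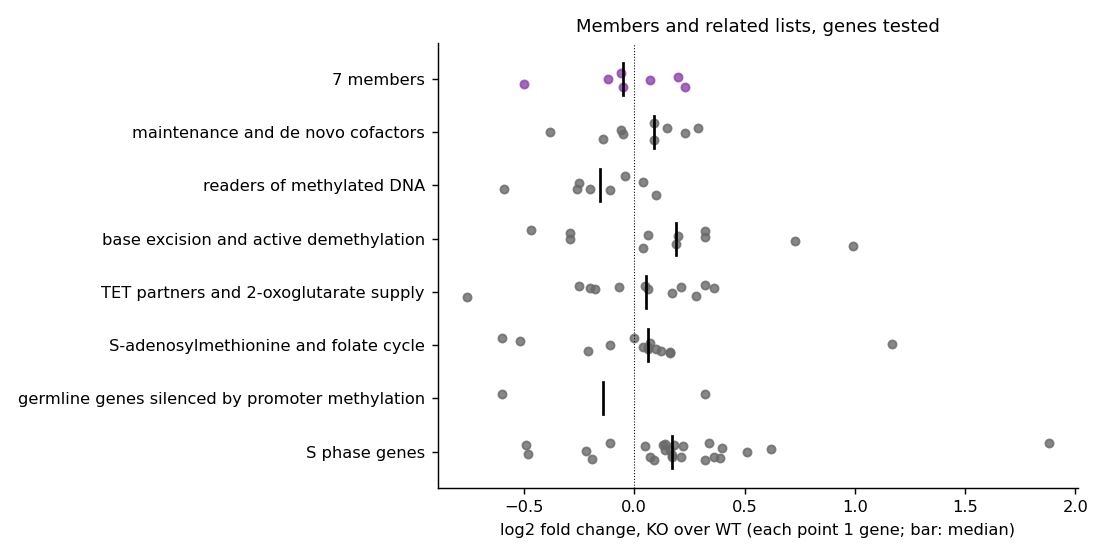
Log2 fold change, KO over WT, of each tested gene (points) of the 7 members (purple) and of 7 related lists (grey), with the median of each as a bar. The medians lie between -0.15 and 0.19, and no gene shown passed the test over all genes; the point farthest right is Ccne1, which had as few as 4 counts in a library.

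Germline genes that promoter methylation is known to silence in body cells were also followed, although counts do not measure methylation. Of 16 such genes 6 were listed at 0 in all 8 libraries, namely Sycp1, Tex101, Hormad1, Taf7l, Dpep3 and Rpl10l. Only 2 of the 16 passed the low-count filter and 0 passed the test. Of those not tested, Sycp3 averaged 1.92 ± 0.755 CPM in KO and 0.948 ± 0.387 CPM in WT, from 3 to 29 counts a library. Dazl ran the other way, at 0.322 ± 0.643 CPM in KO and 0.557 ± 0.495 CPM in WT, from at most 9 counts. Both overlapped between the groups. Brdt, a testis bromodomain gene, averaged 6.74 ± 2.26 CPM in KO and 5.77 ± 2.26 CPM in WT, and Ddx4, a germ cell helicase, 2.30 ± 2.79 CPM in KO and 2.65 ± 3.57 CPM in WT (SD, n = 4 each; adjusted p = 0.852 and 0.854 by edgeR). The summed level of the list was 9.47 to 13.4 CPM in KO and 6.59 to 19.4 CPM in WT, so WT mouse 4 had the highest and WT mouse 1 the lowest sum.

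The genes whose profiles over the 8 libraries were most like those of the 7 were found by the root-mean-square difference of centred log2 CPM. For Dnmt3a these were Fzd7, Tob1 and Slc25a32, at differences of 0.098, 0.101 and 0.111, where the median over all genes was 0.450. Their log2 fold changes were -0.46, -0.49 and -0.33, and none passed the test (edgeR adjusted p = 0.41, 0.368 and 0.616). For Dnmt1 they were Sec16a, Naa50 and Cops6 (0.071, 0.083 and 0.084), and for Uhrf1 Zwint, Kbtbd7 and Klk8 (0.130, 0.141 and 0.142). For Dnmt3b they were Spred1, Eif3l and Xrn2 (0.087, 0.089 and 0.097).

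For Tet1 the nearest profiles were those of Rnf7, Nifk and Ezr (0.050, 0.056 and 0.076), for Tet2 Soga1, Sin3a and Usp38 (0.078, 0.081 and 0.088), and for Tet3 Mark2, Rab27a and Tob2 (0.051, 0.099 and 0.099). The 8 libraries share depth and scaling, and with 11498 genes and 8 points close matches are found for any gene, so these are descriptions.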

How the data were processed

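RNA-seq was analysed from bone marrow haematopoietic stem cells of 4 knockout and 4 wild-type mice, 1 library per mouse. The deposited values were raw counts of reads per gene symbol. Per the labels' protocols, the authors amplified total RNA with the Nugen Ovation system, mapped reads with STAR (2.4.0d-2) and counted them with htseq-count (0.6.1galaxy1). The build was mm10, per the submitters' processing notes. The sources used here do not give the gene annotation or the strand setting. Library totals were 3594315 to 14872493 counts.

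The deposited counts went unchanged into edgeR 4.0.16 (R 4.3.3). The steps were filterByExpr (minimum count 10, minimum total 15), TMM scaling, and the robust quasi-likelihood test of genotype, two-sided, with no covariate. Benjamini-Hochberg adjustment ran over 11498 genes, at a threshold of 0.05. The 95% intervals of a log2 fold change used the test's own degrees of freedom. The single-gene exact permutation test compared mean log2 CPM (prior count 2). DESeq2 1.42.0 and limma 3.58.1 (voom) were alternatives, with other scalings, filters, a replicate block, thinned counts and omission of each library. The script was tested on simulated counts. The members and lists were chosen with earlier results of these data known. Genes named outside the members were the members of each related list past the threshold, the 2 with the smallest p in each, and, for each of the 7 genes, the 3 genes with the most similar profile. Other list genes (Hells, Idh2, Ogt, Mat2a, Tdg, Apex1, Sycp3, Dazl, the markers and genes at or near 0) were named after their values were seen. Exonic lengths and coordinates came from GENCODE M21 (GRCm38, the assembly of mm10), and promoter sequences from RefSeq.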

Additional observations from a re-analysis of the deposited data

Results flagged for a closer look

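Idh1, an enzyme that makes 2-oxoglutarate, had 1 library far from the others of its group. KO mouse 2 was at 28.2 CPM, against 15.5 to 17.6 CPM in the other 3 KO mice. Its gap to the nearest was 0.832 of the whole range, just past Dixon's 95% limit for 4 samples. In all, 48 groups of 24 genes were looked at, of which chance flags about 5% each.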

How the results depend on the processing

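With 4 mice a group, differences as large as the ends of the intervals given remain possible. Amplified reads without molecular identifiers are not independent molecules. The log2 fold change of Dnmt3a passed the threshold in 3 of 18 alternatives, at -0.51 with DESeq2, -0.49 without a filter and -0.58 without WT mouse 4, so that the count of lower members was 1 in these and at an adjusted p of 0.1, against 0. Omitting single mice gave -0.59 to -0.43 for Dnmt3a. It turned the sign of Dnmt3b (-0.18 to 0.03; 0.01 without KO mouse 2, 0.03 without WT mouse 1), Tet1 (-0.15 to 0.01; 0.0050 without KO mouse 4, 0.01 without WT mouse 4) and Tet2 (-0.03 to 0.15; -0.03 without WT mouse 4), all far from the threshold. Dnmt1, Uhrf1 and Tet3 kept their sign and missed the threshold in all 18. Over all genes, 29 were higher and 38 lower, against 78 and 76 with DESeq2, 109 and 90 without a filter, 66 and 59 at an adjusted p of 0.1, and 14 to 33 and 21 to 38 when a mouse was left out. The fewest were without WT mouse 3. Without a filter 2 S-phase genes were higher, against 0. Per kb of the longest transcript, levels in KO were 118 (Dnmt1), 23.2 (Dnmt3a), 29.6 (Dnmt3b), 27.6 (Uhrf1), 17.0 (Tet2) and 15.9 (Tet3) CPM per kb, and in WT 101 (Dnmt1), 33.0 (Dnmt3a), 16.4 (Tet2) and 17.3 (Tet3), a change that comes from the shorter length itself. Same-numbered mice did not deviate together (correlations -0.092 to -0.009). With so few mice this does not settle whether the number marks pairs. With the mouse number as a replicate block, Dnmt3a was at -0.51 (edgeR adjusted p 0.137). The cause of the other changes was not tested.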
